A study of Mus musculus with 18 samples.

Results

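Peroxisomal beta-oxidation genes were examined in liver RNA-sequencing of male and female mice with the proline or the leucine form of GKRP. The 9 genes were taken by symbol from the 52230 genes to which transcripts could be joined: Ehhadh, Acox2, Acaa1a, Acaa1b, Hsd17b4, Scp2, Abcd3, Crot and Pex11a. All 9 passed the filter of at least 10 counts in at least 4 libraries, as did 10938 genes in all. The genes were listed by name without a cut on any measured value, but with earlier results of these data known. Each of the 9 lay above the ninetieth percentile of mean normalized count among the genes tested.

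GKRP, the product of Gckr, binds glucokinase in the liver cell nucleus. The mice were of the knock-in line GCKR-P446L-EMI-B6N, in which a proline of the endogenous GKRP is replaced by leucine in the whole animal, and were kept on standard chow. PP mice carry the wild-type proline form and LL mice the leucine form, and PP mice are described as litter mates. There were 4 PP and 4 LL males and 5 PP and 5 LL females. By their labels PP mice were 9 to 14 weeks old, LL females 11 to 14 and LL males 13 to 14, although the design text gives 14 weeks for all. The 3 mice of 9 weeks were all PP. The libraries were of whole liver, so that a change in the number of cells and a change in RNA per cell cannot be told apart.

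Peroxisomes shorten very long-chain, branched-chain and dicarboxylic fatty acids and the side chains of bile acid precursors, substrates that mitochondria handle poorly. Each cycle needs entry of the acyl-CoA, an oxidase, a bifunctional hydratase and dehydrogenase, and a thiolase, and the shortened products leave as carnitine esters. In rodent liver many of these genes are targets of PPARα, the receptor that answers to fatty acids and to peroxisome proliferators.

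The genes lay on 8 chromosomes of GRCm39, and Acaa1a and Acaa1b, near copies of one another, both lay on chromosome 9 (119168742 to 119182956 on the plus strand, and 118977091 to 118986161 on the minus strand). Their sequences are shown because the copies share sequence in which a read cannot be assigned to one of them by its letters alone. The coding sequences of Acaa1a-201 and Acaa1b-201 were each 1272 bases long and differed at 44 positions (96.5% identity), with a longest identical run of 327 bases. Coding bases 241 to 300, counted from the start codon, held 9 differences, given in capitals. They lie in exons 2 and 3 of 12, at chr9:119170960-119171823 in Acaa1a and chr9:118984836-118985683 in Acaa1b, and are written along the gene's own strand with the intron left out.
Acaa1a bases 241 to 300: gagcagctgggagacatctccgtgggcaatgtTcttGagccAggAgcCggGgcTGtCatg
Acaa1b bases 241 to 300: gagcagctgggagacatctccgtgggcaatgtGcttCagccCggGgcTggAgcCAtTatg
Bases 361 to 420, in exons 4 and 5, were the same in both copies.
Acaa1a and Acaa1b bases 361 to 420: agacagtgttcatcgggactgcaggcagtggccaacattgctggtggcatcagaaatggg

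Of the stretches of 31 bases in the transcripts of Acaa1b, 50.1% also occurred in another gene and 40.0% in Acaa1a. The share was 27.2% for Acaa1a, 33.1% for Scp2 (all with Gm67972) and 8.45% for Crot, and it was 1.13% for Acox2 and below that for Ehhadh, Hsd17b4, Abcd3 and Pex11a. The estimates of Acaa1a and Acaa1b are therefore uncertain in how they are split. Exons of Acaa1a, Acaa1b, Hsd17b4, Crot and Pex11a also overlapped a gene on the opposite strand, over 0.22% to 7.11% of their bases, and reads of such pairs cannot be told apart without strand.

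The sequence at the RefSeq start is printed for 3 of the genes that gave the differences described here. The windows of Acox2, which also differed between the sexes, had no exact match on their chromosome of GRCm39 and are not printed. Each window runs from 250 bases before to 50 bases after the start. Capitals mark AGGTCA, a single unit of the longer elements that PPARα and other nuclear receptors bind, and CCAAT, both searched on either strand. The 3 printed windows were matched letter for letter to GRCm39 at chr16:21606535-21606834 for Ehhadh, chr9:118986112-118986411 for Acaa1b and chr4:107975695-107975994 for Scp2, all on the minus strand (sequences from RefSeq, table build GRCm38.p6).
Ehhadh: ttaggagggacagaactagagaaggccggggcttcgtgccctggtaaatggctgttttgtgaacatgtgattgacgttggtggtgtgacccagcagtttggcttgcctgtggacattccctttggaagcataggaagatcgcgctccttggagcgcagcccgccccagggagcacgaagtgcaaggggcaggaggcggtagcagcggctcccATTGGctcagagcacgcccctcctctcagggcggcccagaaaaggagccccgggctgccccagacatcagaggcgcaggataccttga
Acaa1b: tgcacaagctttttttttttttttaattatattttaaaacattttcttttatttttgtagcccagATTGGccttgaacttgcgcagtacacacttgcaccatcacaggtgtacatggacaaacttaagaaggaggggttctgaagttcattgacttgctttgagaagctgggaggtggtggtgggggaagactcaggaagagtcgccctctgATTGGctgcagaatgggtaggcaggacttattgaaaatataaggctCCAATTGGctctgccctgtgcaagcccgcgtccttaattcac
Scp2: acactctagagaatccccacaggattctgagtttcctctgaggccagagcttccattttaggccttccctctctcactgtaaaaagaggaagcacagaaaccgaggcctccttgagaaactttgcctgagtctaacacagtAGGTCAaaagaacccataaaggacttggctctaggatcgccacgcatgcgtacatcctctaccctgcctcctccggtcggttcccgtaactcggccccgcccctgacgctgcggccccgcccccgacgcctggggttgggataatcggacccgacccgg
AGGTCA occurred once in the Scp2 window, with its first base at position -109, and in none of the windows of the other members that were searched. It occurred in 16.3% of 32851 such windows. CCAAT occurred in the windows of Ehhadh (position -38), Crot (position -74) and 1 of the 2 starts of Acox2, 4 times in Acaa1a and 4 times in Acaa1b, and in 37.4% of all windows. Hsd17b4 was without an entry in the table of starts. These are matches of letters and were not tested against the expression values. A single AGGTCA is not a full PPARα element, so its presence or absence does not show whether PPARα binds at a gene.

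The 9 genes differed widely in level. Per length, as TPM (a scale on which the transcripts of each library sum to the same total) averaged over the 18 libraries, Scp2 stood highest at 2165, followed by Acaa1b at 501, Abcd3 at 158, Crot at 134, Hsd17b4 at 113 and Ehhadh at 109. Acaa1a (57.8 TPM), Pex11a (49.6 TPM) and Acox2 (41.9 TPM) were the lowest. The ranges over libraries of Abcd3 (69.4 to 231 TPM), Crot (57.5 to 190 TPM), Hsd17b4 (63.8 to 171 TPM) and Ehhadh (29.9 to 227 TPM) overlapped, so the order of these 4 was not resolved. Values below are normalized counts, which are estimated reads per gene scaled between libraries by size factors and are compared only within a gene.

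**Figure D1:**
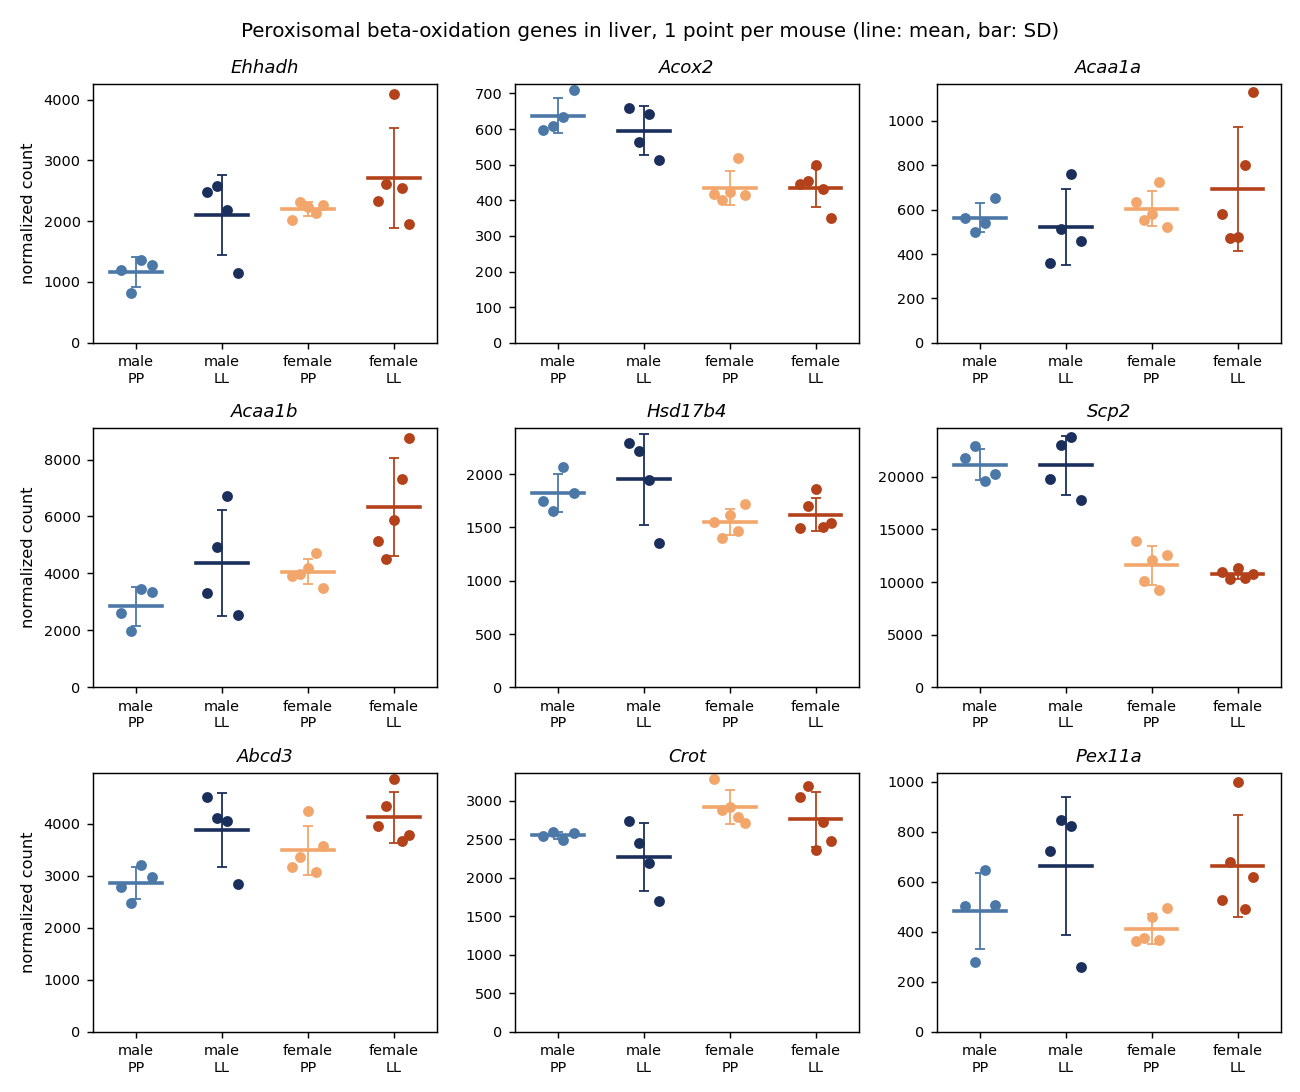
Normalized counts of the 9 genes (vertical axis, from 0) in PP and LL livers of males and of females; each point is 1 mouse, the line is the mean and the bar the SD. Scp2 and Acox2 were lower in every female than in any male of the same genotype, and Ehhadh was lower in all 4 male PP mice than in any female PP mouse.

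Libraries held 3794671 to 6613905 estimated counts. All 8 hepatocyte markers were tested, while Adipoq and Lep, 2 of 4 adipocyte markers, were at 0 in every library. The hepatocyte markers summed to 25559 to 50543 TPM in male PP, 45474 to 62198 in male LL, 82529 to 137747 in female PP and 62495 to 81270 in female LL mice, so that the sexes did not overlap, nor did PP and LL females. Marker sums on TPM are not scaled between libraries by size factors and depend on what else a library holds. They do not measure the number of cells. In females the 10 macrophage markers, all of them tested, summed to 175 to 197 TPM in PP and 94.5 to 150 TPM in LL mice without overlap, and fragment length was 369 to 631 bases in PP and 247 to 377 bases in LL mice. Mitochondrial transcripts took 8.52% to 10.6% of the counts in male PP, 9.96% to 17.9% in male LL, 9.09% to 12.0% in female PP and 10.5% to 13.7% in female LL mice. The part of these differences in the results was not tested beyond the alternative fits given with the results. Counts per gene cannot check the substitution itself. Gckr did not pass the threshold in any contrast, with log2 fold changes by LL genotype of -0.12 ± 0.15 (SE) in males and -0.05 ± 0.13 in females.

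The first comparison asked which of these genes differ by genotype within each sex. In males, Ehhadh rose in LL mice, by 1.80-fold, and was the 1 gene of 9 to pass the threshold, an adjusted P below 0.05 together with a fold of 1.3 or more upward or 0.7 or less downward. Of all 10938 genes tested, 0.283% passed in this contrast. The study had already listed Ehhadh among the genes raised in male LL livers of these data, so this share is no independent support. In females none of the 9 passed, against 0.658% of all genes. For none of the 9 were PP and LL mice fully separated, in males (4.07% of all genes were) or in females (2.66%). The median log2 fold change of the 9 genes was 0.10 in males and 0.20 in females, and that of all genes tested was 7.51e-05 and 0.01. On the log2 scale the 9 genes ran from -0.17 to 0.84 in males and from -0.11 to 0.68 in females. The test was DESeq2's Wald test with Benjamini-Hochberg adjustment over the genes kept by its independent filtering, which sets aside genes of low mean count. This left 3301 of the 10938 genes with an adjusted P in males and 8598 in females, and the others could not pass. At an unadjusted p below 0.05, 3 of the 9 were higher in male LL mice (3.84% of all genes) and 2 of the 9 in female LL mice (6.65% of all genes), and edgeR's quasi-likelihood test passed none of the 9 in either sex.

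Ehhadh encodes the L-bifunctional enzyme, which carries out the hydratase and dehydrogenase steps and is needed for dicarboxylic acids. Its normalized counts were 1203, 818, 1364 and 1279 in male PP mice 1 to 4 and 2473, 2586, 2176 and 1143 in male LL mice 1 to 4. Male LL mice 1 to 3 were above every male PP mouse and mouse 4 was within the PP range, so the groups overlapped. The log2 fold change was 0.84 ± 0.24 (SE, 95% interval 0.38 to 1.31, DESeq2 adjusted P = 0.0458). Over 30 alternative settings it stayed between 0.59 and 1.05, and it passed the threshold in 16 of them. It was 1.05 (adjusted P = 4.9e-04) without male LL mouse 4. The call was lost without male PP mouse 1, 2 or 4, male LL mouse 1 or 2 or female PP mouse 5 (adjusted P from 0.109 to 0.431), and with edgeR's quasi-likelihood test (adjusted P = 0.380). It was also lost with fragment length, age or the mitochondrial share as a term (adjusted P = 0.217, 0.132 and 0.748), and without the mice of 9 weeks (adjusted P = 0.274). The call was further lost with no independent filtering, with no filter on low counts and with at least 50 counts. In females the counts of Ehhadh were 2023, 2313, 2236, 2134 and 2272 in PP mice 1 to 5 and 2332, 2610, 4097, 2541 and 1948 in LL mice 1 to 5. Here 4 of 5 LL mice were above the highest PP mouse and LL mouse 5 was below the lowest. The difference was 0.30 ± 0.21 on the log2 scale (DESeq2 adjusted P = 0.521).

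Hsd17b4 encodes the D-bifunctional enzyme, which serves the branched-chain and bile acid substrates at the same steps. It had 1746, 1656, 2065 and 1820 normalized counts in male PP mice and 2294, 2222, 1943 and 1350 in male LL mice. Its female counts were 1402 to 1719 in PP and 1494 to 1865 in LL mice. Both pairs of groups overlapped widely, and the log2 differences by genotype were 0.10 ± 0.14 in males and 0.06 ± 0.13 in females. The 95% interval in males, -0.18 to 0.38, reached past the fold limit of 1.3, which is 0.38 on this scale.

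Acaa1a and Acaa1b encode the thiolases that end the cycle for straight-chain substrates. Acaa1b had 2611, 1973, 3453 and 3340 normalized counts in male PP mice and 3314, 4911, 6718 and 2525 in male LL mice. In females it had 3915, 3966, 4203, 4704 and 3495 in PP and 5135, 4505, 5880, 7326 and 8764 in LL mice. Of the female LL mice, 4 of 5 were above the highest PP mouse, and in males 2 of 4. The log2 differences were 0.62 ± 0.26 in males (unadjusted p = 0.0169, DESeq2 adjusted P = 0.312) and 0.64 ± 0.23 in females (unadjusted p = 0.0057, DESeq2 adjusted P = 0.144), so neither passed. With only the 10 female libraries in the fit, Acaa1b passed in females (adjusted P = 0.0253), and so did Pex11a (adjusted P = 0.0317). Acaa1a had 498 to 654 counts in male PP, 358 to 763 in male LL, 522 to 724 in female PP and 474 to 1129 in female LL mice. Its log2 differences were -0.11 ± 0.25 in males and 0.20 ± 0.23 in females, with the LL mice the more scattered in both sexes.

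Because the copies share sequence, they were also compared as a share and as a sum. Among males, Acaa1b took 85.5% ± 2.54 (SD, n = 4) of the TPM of the pair in PP and 88.9% ± 7.05 (n = 4) in LL mice, and among females 87.9% ± 1.53 (n = 5) and 91.9% ± 1.25 (n = 5). In females the share was 85.6% to 89.6% in PP and 90.1% to 93.6% in LL mice, without overlap (exact two-sided permutation p = 0.00794, the smallest that 5 against 5 mice allow, and 0.0635 after adjustment over the 8 tests of shares). In males the difference of 3.40 points was within the spread (exact permutation p = 0.4), with male LL mouse 4 at 78.4% and the other male LL mice at 91.7% to 93.4%. It was 1.92 to 6.91 points with 1 mouse left out, the highest without male LL mouse 4 and the lowest without male LL mouse 1, and 5.77 points when taken from normalized counts (exact permutation p = 0.0571). Summed, the 2 genes had 4660 ± 512 normalized counts in PP females and 7014 ± 1987 in LL females (n = 5 each, exact permutation p = 0.0159). In males the sums were 3408 ± 734 and 4890 ± 2010 (n = 4 each, exact permutation p = 0.257). The p values of the sums were not adjusted for the number of tests. On average Acaa1b made up 87.1% of the normalized counts of the pair in PP and 90.3% in LL females, so the sum mostly follows that gene. The sum does not depend on the split. In females its groups overlapped, at 4017 to 5428 in PP and 4979 to 9893 in LL mice. On TPM the summed hepatocyte and macrophage markers were also lower in every LL than in any PP female, and fragments were mostly shorter, as given above. Their part in this result was not tested.

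Abcd3 encodes a transporter of the peroxisomal membrane that takes up long-chain and branched acyl-CoAs and bile acid intermediates. Its counts were 2790, 2468, 3203 and 2978 in male PP and 4509, 4103, 4062 and 2843 in male LL mice. As for Ehhadh, male LL mice 1 to 3 were above all PP mice and mouse 4 was among them. The log2 difference was 0.44 ± 0.15 (unadjusted p = 0.0029, DESeq2 adjusted P = 0.137), and without male LL mouse 4 it was 0.56 and passed (adjusted P = 0.0103). Female counts were 3077 to 4242 in PP and 3666 to 4862 in LL mice, a log2 difference of 0.24 ± 0.13 (DESeq2 adjusted P = 0.374).

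Pex11a encodes a membrane protein that drives the division of peroxisomes. It had 502, 277, 646 and 506 normalized counts in male PP mice and 723, 848, 824 and 259 in male LL mice. In females it had 364, 376, 457, 368 and 496 in PP and 527, 679, 999, 489 and 618 in LL mice, of which 4 of 5 exceeded all PP mice. The log2 differences were 0.46 ± 0.30 in males and 0.68 ± 0.27 in females (unadjusted p = 0.0113, DESeq2 adjusted P = 0.188). Male LL mouse 4 had the lowest Pex11a count of the 18 mice.

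The other 3 genes showed no difference by genotype that passed the threshold. Acox2 encodes the oxidase for branched-chain and bile acid intermediates. Its log2 difference by LL genotype was -0.10 ± 0.13 in males and 0.00 ± 0.11 in females. Scp2, which encodes both the branched-chain thiolase SCPx and the lipid carrier SCP2, had differences of -0.01 ± 0.13 and -0.11 ± 0.11. Crot encodes the carnitine octanoyltransferase, by which shortened fatty acids leave the peroxisome, and had differences of -0.17 ± 0.13 and -0.08 ± 0.12. The 95% intervals of Acox2 (-0.35 to 0.14 in males, -0.22 to 0.23 in females), Scp2 (-0.25 to 0.24 in males, -0.33 to 0.11 in females) and Crot (-0.43 to 0.09 in males, -0.31 to 0.15 in females) lay inside the fold limits.

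**Figure D2:**
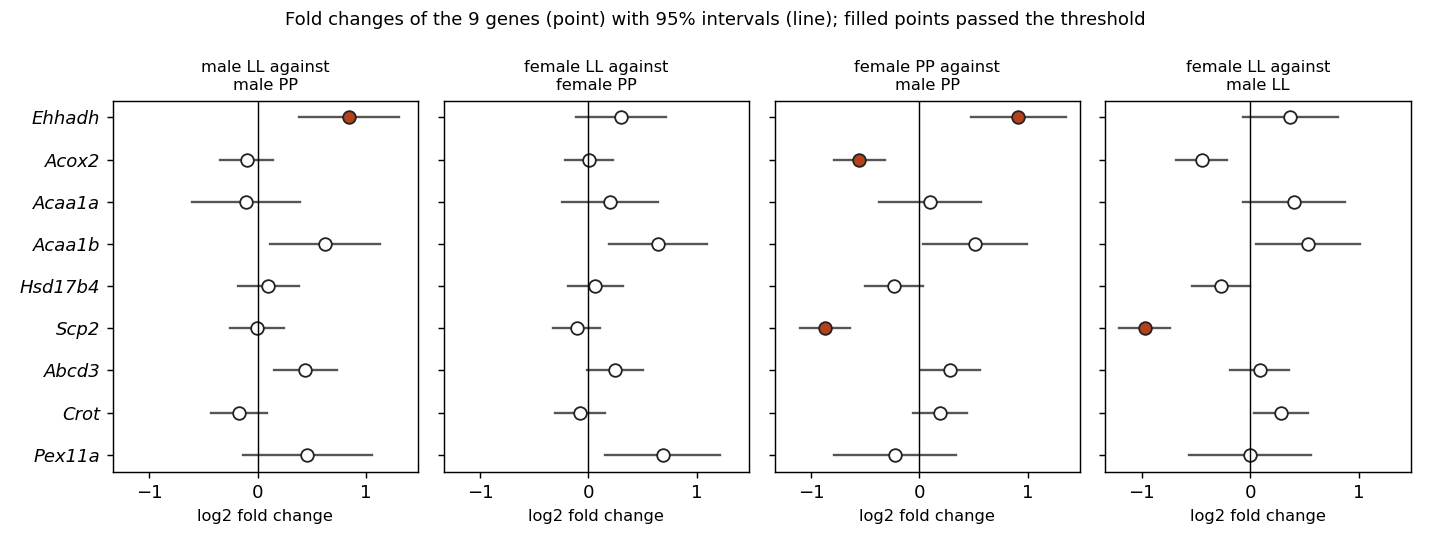
Log2 fold changes (horizontal axis) of the 9 genes with 95% intervals in the 2 genotype and the 2 sex comparisons; filled points passed the threshold. Ehhadh was the 1 filled point among the genotype comparisons, and Scp2 passed in both sex comparisons.

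The genotype comparison was also made for the mean of both sexes, which uses the same 18 libraries again and is no independent evidence. In it 2 of the 9 genes passed (0.978% of all genes), and both rose in LL mice (0.594% of all genes rose). Ehhadh changed by 0.57 ± 0.16 on the log2 scale (DESeq2 adjusted P = 0.0238) and Acaa1b by 0.63 ± 0.17 (DESeq2 adjusted P = 0.0238). Abcd3 had an adjusted P of 0.0361 with a fold of 1.27, under the fold limit, and Pex11a a log2 difference of 0.57 ± 0.20 with an adjusted P of 0.0977. Ehhadh passed in 21 of 29 alternative settings and Acaa1b in 17 of 29, with log2 differences from 0.35 to 0.69 and from 0.48 to 0.76. The lowest for Ehhadh was with the mitochondrial share as a term. Both calls were lost without female PP mouse 1 or 3, male PP mouse 2 or male LL mouse 2, and that of Acaa1b also without female PP mouse 5 or male LL mouse 3 (adjusted P from 0.0527 to 0.113). Neither passed with edgeR (adjusted P = 0.143 for both), with fragment length as a term (adjusted P = 0.345 and 0.471) or with the mitochondrial share as a term (adjusted P = 0.346 and 0.0508). Without male LL mouse 4, all of Ehhadh, Acaa1b, Abcd3 and Pex11a passed (log2 differences of 0.67, 0.72, 0.40 and 0.70). Whether the genotype effect differs between the sexes was tested as an interaction, where 1606 genes had an adjusted P. In it none of the 9 passed (0.119% of all genes did). None of the 9 had an unadjusted p below 0.05 in it, where 5.67% of all genes did, and no gene of the 10938 passed with edgeR (676 at an unadjusted p below 0.05). For Ehhadh the interaction was -0.54 ± 0.32 (unadjusted p = 0.0859, DESeq2 adjusted P = 0.572), and for Acaa1b 0.02 ± 0.35.

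The second comparison asked which of the genes differ between the sexes. In PP mice, 3 of 9 passed, where 6.45% of all genes did: Scp2 and Acox2 were lower and Ehhadh higher in females. In LL mice 1 of 9 passed, Scp2, where 6.12% of all genes did. In PP mice every female was above every male for 3 of the 9 genes, Ehhadh, Acaa1b and Crot (5.21% of all genes), and below every male for 2, Scp2 and Acox2 (4.53% of all genes). In LL mice every female was below every male for the same 2 genes (4.53% of all genes), and none was fully separated upward. The 2 sex comparisons share no mice.

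Scp2 had 21794, 22910, 19623 and 20296 normalized counts in male PP and 13879, 10128, 12100, 9236 and 12580 in female PP mice. In LL mice it had 19752, 22993, 23787 and 17795 in males and 10990, 10251, 11334, 10382 and 10725 in females. The lowest male was above the highest female in both genotypes, and the female LL mice were the least scattered. The log2 difference, female against male, was -0.87 ± 0.12 in PP (DESeq2 adjusted P = 4.59e-11) and -0.97 ± 0.12 in LL mice (DESeq2 adjusted P = 1.33e-13), and it passed in all 30 alternative settings in both genotypes, including edgeR. TPM counts each transcript per length and is not scaled between libraries by size factors. On TPM the female mean of Scp2 was lower only in LL mice. It was 2310 ± 799 in male PP and 2365 ± 518 in female PP mice, and 2665 ± 711 in male LL and 1448 ± 279 in female LL mice. Relative to males, each gene of the set stood higher in PP females on TPM than on normalized counts. Crot, for example, had 82.9 TPM in male and 173 TPM in female PP mice, at 2554 and 2917 normalized counts. A fit of the counts with the length of each gene's transcripts as an offset kept the difference, at -0.71 in PP and -1.22 in LL mice. Gm67972, which shares sequence with Scp2, had at most 113 normalized counts, so adding it to Scp2 left the log2 ratio at -0.87 in PP mice.

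Acox2 had 598, 610, 633 and 709 normalized counts in male PP and 417, 401, 423, 520 and 416 in female PP mice. The groups did not overlap, and the log2 difference was -0.55 ± 0.12 (DESeq2 adjusted P = 1.46e-04), past the threshold in 28 of 30 alternative settings. Without male PP mouse 4 the difference was -0.50, short of the fold limit. On TPM the PP groups overlapped, at 23.8 to 96.0 in males and 29.0 to 50.7 in females. The TPM means were 48.2 in male PP and 39.6 in female PP mice, but the medians were 36.5 and 39.9. In LL mice Acox2 had 660, 563, 643 and 514 normalized counts in males and 444, 454, 499, 432 and 349 in females. The difference of -0.45 ± 0.12 had a DESeq2 adjusted P of 0.00616, but its fold of 0.733 was short of the limit of 0.7. Between PP and LL mice the sex difference of Acox2 changed by 0.11 ± 0.17 (interaction, DESeq2 adjusted P = 0.889).

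Ehhadh was higher in female than in male PP mice by 0.91 ± 0.22 on the log2 scale (1.88-fold, DESeq2 adjusted P = 0.00147), with the lowest female at 2023 and the highest male at 1364. This passed in all 30 alternative settings. In LL mice the difference was 0.37 ± 0.22 (DESeq2 adjusted P = 0.351), and the sexes overlapped. Acaa1b was higher in all 5 female PP mice than in any male PP mouse, by 0.51 ± 0.25 (unadjusted p = 0.0371, DESeq2 adjusted P = 0.242), and by 0.53 ± 0.25 in LL mice (DESeq2 adjusted P = 0.185). Crot had 2547, 2590, 2491 and 2588 counts in male PP and 3287, 2880, 2914, 2791 and 2714 in female PP mice, a gap of 0.19 ± 0.13 on the log2 scale (DESeq2 adjusted P = 0.479). For Abcd3 the female difference was 0.29 ± 0.14 in PP mice (DESeq2 adjusted P = 0.258) and 0.09 ± 0.14 in LL mice. Hsd17b4, Acaa1a and Pex11a gave adjusted P values from 0.251 to 0.999 over both sex comparisons.

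The 2 products of Scp2 were compared through their transcripts. Long transcripts (at least 1200 coding bases) were taken for SCPx and short ones (under 600 coding bases) for the carrier SCP2. The short class also held a transcript of 330 coding bases that lies wholly upstream of the main short transcript. It shares none of the coding bases of the main short transcript, so the short class is not purely the carrier. Of the TPM on both classes, the long form took 38.8% ± 7.87 in PP and 40.3% ± 22.8 in LL males, and 46.7% ± 33.3 in PP and 48.6% ± 10 in LL females (SD). Single mice ran from 17.5% to 100%, the last in female PP mouse 3, where the main short transcript was estimated at 0. None of the 4 comparisons of groups was beyond this spread (exact permutation p from 0.492 to 0.929). Without the upstream transcript in the short class, the exact permutation p ran from 0.524 to 0.943. The division between SCPx and SCP2 could therefore not be resolved from these estimates.

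**Figure D3:**
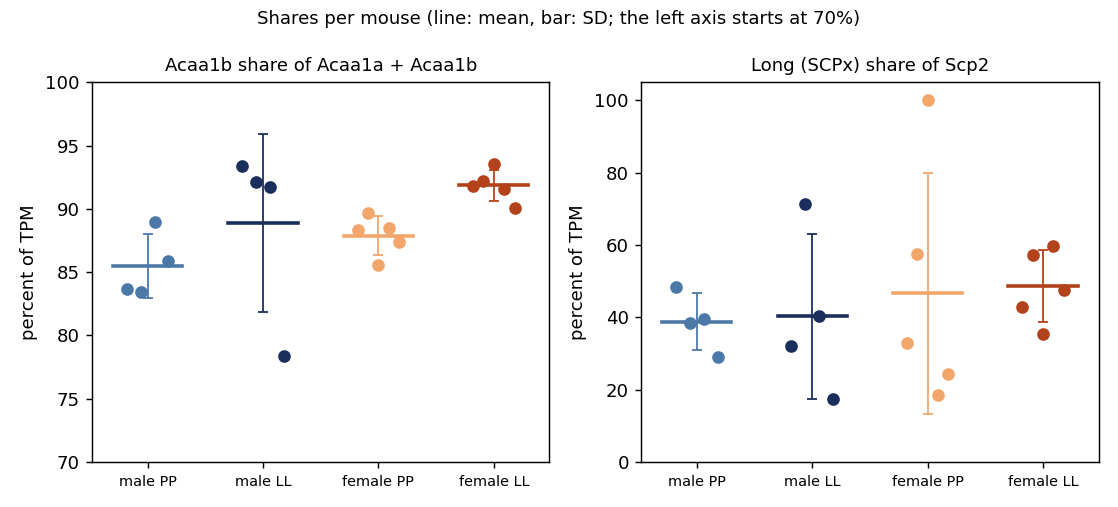
Share of TPM (percent, vertical axis) taken by Acaa1b of Acaa1a plus Acaa1b (left, axis from 70%) and by long transcripts of Scp2 (right); each point is 1 mouse, the line is the mean and the bar the SD. The Acaa1b share was 85.6% to 89.6% in female PP and 90.1% to 93.6% in female LL mice, and the Scp2 share ran from 17.5% to 100%.

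Within groups, the 9 genes did not vary together as 1 block. Across the 18 mice, after subtraction of the group mean of log2(normalized count + 1), the Pearson correlation was 0.90 between Ehhadh and Pex11a, 0.90 between Hsd17b4 and Pex11a, 0.88 between Abcd3 and Pex11a, 0.87 between Hsd17b4 and Abcd3, 0.85 between Ehhadh and Hsd17b4 and 0.83 between Ehhadh and Abcd3. These 4 genes, of entry, both bifunctional enzymes and peroxisome division, tended to be high and low in the same mice. Their pairs are named because they were the strongest of the 36. Male LL mouse 4 was the lowest of its group for all 4 genes, and the correlations were not computed without it. Acaa1a stood apart, at -0.26 with Ehhadh and -0.30 with Abcd3, and went with Acaa1b (0.78), with which it shares sequence. The median over the 36 pairs was 0.33, and over pairs of 3557 other well-expressed genes (mean normalized count from 100 upward) it was 0.0073. These values describe 18 mice, share their libraries and were not tested.

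Male LL mouse 4 had the lowest count of its group for 8 of the 9 genes, all but Acaa1a, and male PP mouse 2 for 6 of the 9. Female LL mouse 3 had the highest count of its group for 6 of the 9. With the mitochondrial share of the library, also after subtraction of group means, the 9 genes had correlations from -0.51 (Acaa1a) to 0.52 (Acox2), and 0.44 for Ehhadh, and with log2 fragment length from -0.34 (Crot) to 0.17 (Acox2).

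**Figure D4:**
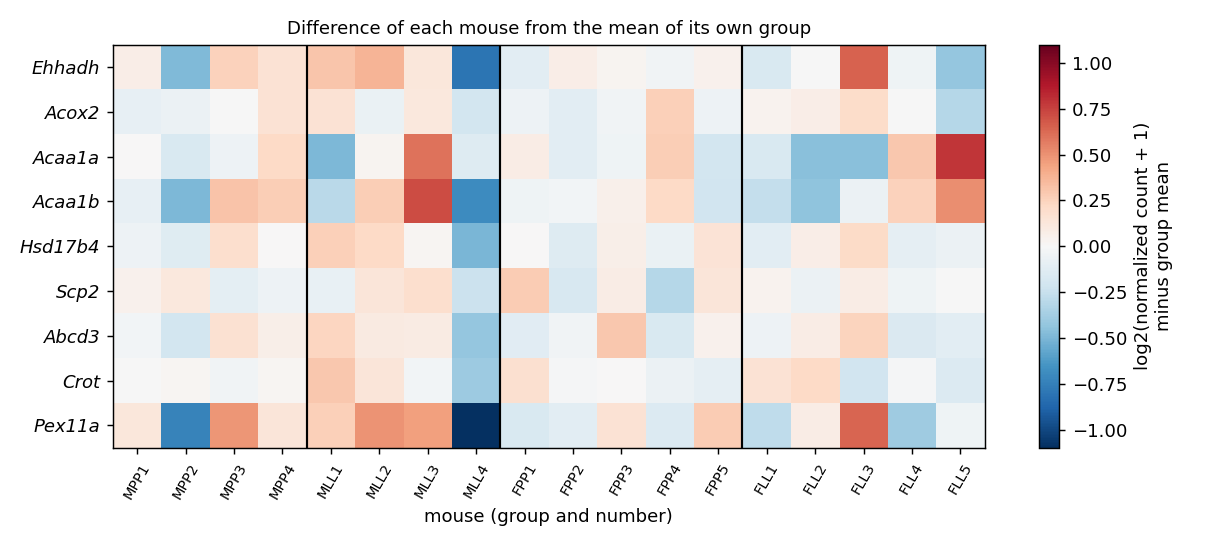
Difference of each mouse (columns, by group and number, MPP male PP, MLL male LL, FPP female PP, FLL female LL) from the mean of its own group in log2(normalized count + 1) for the 9 genes (rows); red is above and blue below. Male LL mouse 4 was below its group mean for all 9 genes, and lowest in its group for 8 of them.

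Among the genes outside the set most like Ehhadh by this within-group correlation were Gpd2 (0.85), which encodes the mitochondrial glycerol-3-phosphate dehydrogenase, Cyp4a10 (0.84), a fatty acid omega-hydroxylase, Dmgdh (0.84), dimethylglycine dehydrogenase, and Hsdl2 (0.83), an oxidoreductase with a sterol carrier domain. Without subtraction of group means the correlation with Ehhadh was 0.93 for Cyp4a10 and 0.88 for Hsdl2, but 0.22 for Dmgdh. Likeness was searched among 3557 genes over 18 libraries.

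Other genes of the pathway were counted from 5 lists. Of 27 other genes of peroxisomal fatty acid and bile acid oxidation, 26 were tested, and 2 rose in male LL mice (0.283% of all genes passed), 1 in female LL mice (0.658% of all genes) and none fell. In males these were Abcd2, the transporter nearest in role to Abcd3 for very long-chain substrates (1.95 ± 0.38, DESeq2 adjusted P = 3.96e-04), and Acot3, a peroxisomal thioesterase (2.11 ± 0.61, DESeq2 adjusted P = 0.0471). Abcd2 had 2.82 to 20.8 normalized counts in PP males, 19.2 to 82.9 in LL males and 137 to 229 in females of both genotypes, so that all males were below all females. In females the gene was Tysnd1, the protease that processes enzymes of this pathway after import (0.63 ± 0.17, DESeq2 adjusted P = 0.0392). Over both sexes Abcd2, Acot4, a thioesterase (0.73 ± 0.21, DESeq2 adjusted P = 0.0308), and Crat, carnitine acetyltransferase (0.60 ± 0.18, DESeq2 adjusted P = 0.0457), rose, where 0.594% of all genes did.

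None of the 15 peroxins, which build the organelle, passed in any of the 6 contrasts, where 0.119% to 6.45% of all genes did. At an unadjusted p below 0.05, 1 was higher in male LL mice (3.84% of all genes) and 1 in female LL mice (6.65% of all genes). Of 14 other peroxisomal enzymes tested, none passed by genotype within a sex (0.283% of all genes in males and 0.658% in females). Uox, urate oxidase, passed in the interaction (-0.62 ± 0.16, DESeq2 adjusted P = 0.0245, 0.119% of all genes passed), though not with edgeR, which passed no gene there. The list of 24 PPARα targets outside the peroxisome had a median log2 difference of 0.36 in males and 0.24 in females. Only Cyp4a14, a fatty acid omega-hydroxylase, passed in males (3.98 ± 0.70, DESeq2 adjusted P = 1.87e-05, 0.283% of all genes passed) and none in females (0.658% of all genes). Cyp4a14 and Acot2 (1.16 ± 0.27, DESeq2 adjusted P = 0.00491) passed over both sexes (0.978% of all genes). At an unadjusted p below 0.05, 11 of the 24 were higher in males (3.84% of all genes) and 6 in females (6.65% of all genes), and none was lower. Among 6 regulators none passed in any contrast (0.119% to 6.45% of all genes did). Ppara had log2 differences by genotype of -0.37 ± 0.48 in males and -0.85 ± 0.43 in females, its partner Rxra -0.30 ± 0.19 and -0.45 ± 0.17, and the coactivator gene Ppargc1a 0.27 ± 0.39 and 0.11 ± 0.33.

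**Figure D5:**
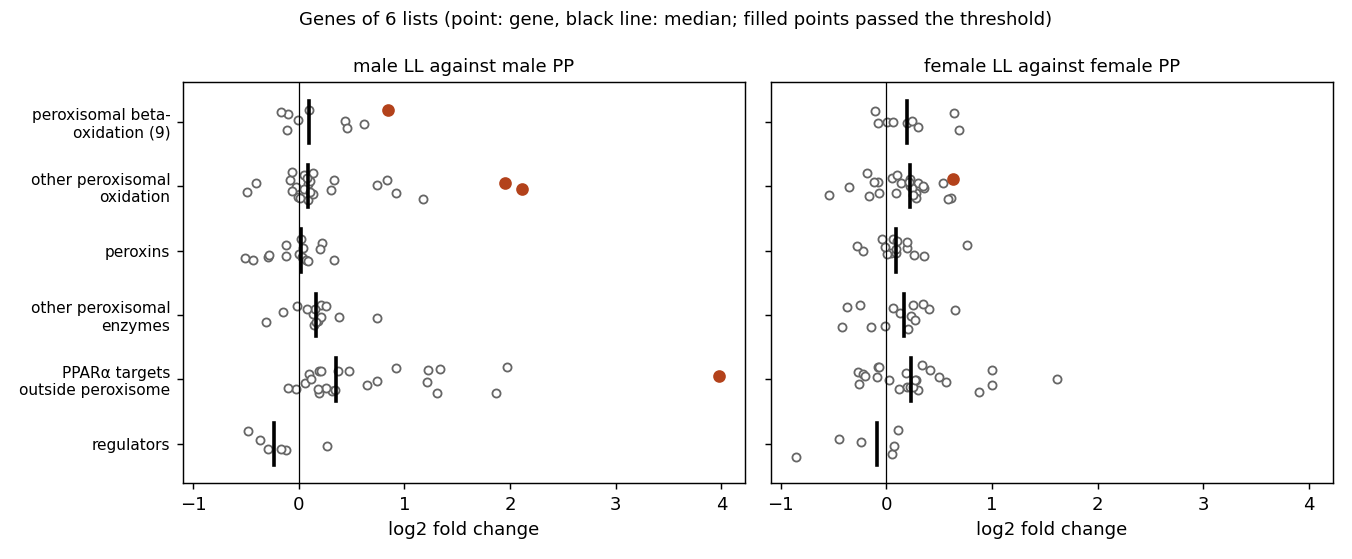
Log2 fold changes by LL genotype (horizontal axis) in males (left) and females (right) for the genes of 6 lists; each point is 1 gene, the black line is the median and filled points passed the threshold. Filled points are Ehhadh, Abcd2, Acot3 and Cyp4a14 in males and Tysnd1 in females.

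Between the sexes the other oxidation genes split in both directions, as the 9 genes did. In PP mice 6 of 26 were higher and 3 lower in females (6.45% of all genes passed in either direction), and in LL mice 7 higher and 2 lower (6.12% of all genes). Higher in females of both genotypes were Abcd2 (4.11 ± 0.36 in PP), Acot3 (4.35 ± 0.57 in PP) and Acot4 (1.88 ± 0.29 in PP). Lower in both were Phyh and Nudt7, the phytanoyl-CoA hydroxylase and a CoA diphosphatase (-0.59 ± 0.12 and -1.54 ± 0.25 in LL). Hacl1, the lyase of alpha-oxidation, was higher in female PP mice (1.19 ± 0.25). Of the 24 PPARα targets, 7 were higher in female PP mice and 3 in female LL mice, set against the same shares of all genes, and none was lower, with Cyp4a14 at 6.09 ± 0.66 and Cyp4a10 at 2.44 ± 0.58 in PP mice.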

How the data were processed

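Liver RNA was extracted by the authors with Trizol and columns, and samples above an RNA integrity limit were sequenced. Reads were checked with FastQC, were not trimmed, and were assigned to GENCODE M26 transcripts of GRCm39 with Salmon 1.4.0 (version from the submitters' processing notes). The layout and strandedness are not given in the sources used here. The estimated counts and TPM values deposited by the authors are per transcript. Salmon shares reads between similar transcripts, which affects Acaa1a, Acaa1b and Scp2.

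Here estimated counts were summed per gene through GENCODE M39 (137570 of 139225 transcripts, at least 99.8% of the counts of a library) and rounded. DESeq2 1.42.0 in R 4.3.3 was fitted to 10938 genes in all 18 libraries with the 4 groups as levels. The study's methods name DESeq2 and these limits, but not this filter or a joint fit of all groups. A gene passed at adjusted P below 0.05 with a fold of at least 1.3 or at most 0.7 (no fold limit for the interaction). The design had no pairing. Depths of 3794671 to 6613905 counts and 4 or 5 mice a group set the precision, and errors are SE for log2 fold changes and SD otherwise. Shares were tested with exact two-sided permutation tests (scipy). No library repeated another of its group within counting noise (chi-square divided by its degrees of freedom, 12.3 to 107). The fit was also run on simulated counts, which held no differences in fragment length, mitochondrial share or age between groups. That run therefore does not bear on those differences. Alternatives included edgeR 4.0.16, other size factors and filters, a length offset, technical terms, age and each library left out. The 9 genes and the lists were chosen with earlier results of these data known. Genes of other lists are named when they passed in a genotype contrast, and up to 6 per list by adjusted P between the sexes, with Ppara, Rxra, Ppargc1a, Gckr and the 5 genes most like Ehhadh, of which 1 is not reported here. Mouse numbers are those of the labels.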

Additional observations from a re-analysis of the deposited data

Results flagged for a closer look

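Within the 5 female PP mice, Acox2 stood at 520 normalized counts in mouse 4, far above the other mice at 401 to 423. Acaa1b took 78.4% of the TPM of Acaa1a and Acaa1b in male LL mouse 4, far below the other 3 mice of that group at 91.7% to 93.4%. Both were picked out by the gap of 1 sample to the next, measured against the range of its group, over 44 groups, of which chance picks out about 1 in 20.

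Uox and Cyp4a14 passed DESeq2's test of whether the effect of genotype differed between the sexes, but edgeR passed none of the 10938 genes there (676 at an unadjusted p below 0.05), so neither call held with that tool. For Uox, urate oxidase of the peroxisome, the interaction was -0.62 ± 0.16 (adjusted P = 0.0245), with log2 differences by LL genotype of 0.38 ± 0.12 in males and -0.25 ± 0.11 in females. For Cyp4a14 the interaction was -3.87 ± 0.93 (adjusted P = 0.0180), with 3.98 ± 0.70 in males and 0.12 ± 0.62 in females. Abcd2 had an interaction of -2.13 ± 0.47 with an unadjusted p of 6.21e-06, but independent filtering gave it no adjusted P.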

How the results depend on the processing

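Of 1602 values of the 9 genes over the alternatives, 62 had the other sign, all of differences that did not pass. Genes passing of 9 moved as follows. In males 1 became 0 with edgeR, with no filter on low counts, with at least 50 counts, with no independent filtering, with fragment length, age or the mitochondrial share as a term, and with mice of 11 weeks or older, and it was 0 to 2 with each library left out. In females 0 became 2 with only the groups of the contrast. Over both sexes 2 became 0 with edgeR, fragment length, the mitochondrial share or older mice and 1 with age, and 0 to 4 with a library left out. In LL mice the 1 gene that differed by sex became 1 to 2, the second being Acaa1b without male LL mouse 3. The mitochondrial share, the older mice and the narrower class of short Scp2 transcripts were chosen after seeing the data. Beyond the stated changes, counts of genes passing among the 9 stayed within 1.5 times.

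Signs changed as follows, in log2 units. Scp2 in males (-0.0050) gave 0.013 with age, 0.052 with the mitochondrial share, 0.0080 with older mice and -0.067 to 0.067 with a library left out. Acaa1a in males (-0.11) gave 0.18 with the mitochondrial share and -0.35 to 0.035 with a library left out, and in females -0.051 to 0.31. Hsd17b4 gave -0.060 in males, -0.047 in females and -0.053 over both sexes with the mitochondrial share. Acox2 in females (0.0045) gave -0.0060 with edgeR, -0.0037 with TMM factors, -0.069 with the length offset, -0.0065 with age, -0.086 with the mitochondrial share, -0.052 with older mice and -0.050 to 0.076 with a library left out. Between the sexes Pex11a gave 0.38 in PP mice with the length offset, and in LL mice 0.037 with at least 50 counts, 0.14 with the length offset, 0.025 with age, 0.011 with the mitochondrial share and -0.27 to 0.14 with a library left out. Abcd3 in LL mice gave -0.036 to 0.17. In the interaction Pex11a gave -0.25 with the length offset and -0.041 to 0.42 with a library left out. Acaa1b there gave -0.013 with fragment length, -0.042 with age, -0.022 with the mitochondrial share and -0.17 to 0.31, Hsd17b4 0.013 with the mitochondrial share and -0.18 to 0.050, and Crot -0.026 to 0.19. Over both sexes Acaa1a gave -0.072 with fragment length, -0.028 with age and -0.079 to 0.12. The long share of Scp2, in percentage points, gave -1.74 from estimated counts and -8.85 to 9.10 with a library left out in males, -5.08 to 15.3 in females, and -3.55 from estimated counts and -5.45 to 14.9 between the sexes in PP mice. The Acaa1b share gave -0.55 to 4.44 points between the sexes in LL mice, and in PP mice 4.01 points from normalized counts, past the threshold. The causes were not tested.

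Mouse numbers did not pair the samples: deviations of same-numbered mice had correlations from -0.17 to 0.16. With the replicate block, Acox2 in females gave -0.0021 and the interaction of Acaa1b -0.0094, and Acox2 between the sexes in PP mice (-0.51) missed the fold limit. Between the sexes the block took the genes passing among all from 705 to 572 in PP and from 669 to 520 in LL mice.

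Calls by genotype were few and moved with the tool: over all genes edgeR passed 3 in males and 3 in females where DESeq2 passed 31 and 72, and 0 against 13 in the interaction and 9 against 107 over both sexes. At an unadjusted p below 0.05 edgeR gave 956 and 1490 genes in males and females. Without female PP mouse 4, 270 genes passed in females. Fragment length as a term left 11 genes in females and older mice alone 16. The split of reads between Acaa1a and Acaa1b, and between the products of Scp2, rests on the authors' estimates.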
